A study of Mus musculus with 2 samples.

Results

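Deep intragenic peaks are sites of Pax7-YFP chromatin enrichment that lie far inside long genes. A peak of the deposited list was taken as deep intragenic when its summit lay within the span of a protein-coding gene on chromosomes 1 to 19 and more than 50000 bp from the nearest end of any protein-coding gene. There were 358 such peaks among 2958 autosomal peaks, and 2977 peaks in all. Each peak was named for its host, the protein-coding gene over its summit (the shortest where several overlapped), and 241 genes were hosts. The choice used positions only and no enrichment value.

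The study asked which genes are targets of Pax7 in muscle stem cells. Chromatin immunoprecipitation with sequencing (ChIP-seq) was done on muscle stem cells that had been sorted by FACS from untreated C57BL/6 mice carrying a Pax7-YFP knock-in. There was 1 library made with an antibody against GFP (Thermo Fisher, A-11122), which had 10622111 filtered tags. There was 1 library of input DNA from the same kind of cells, made without antibody, which had 20429667. Both libraries carried the same knock-in, and cells without the YFP tag were not analysed here. These are DNA libraries, so the labelled cell type could not be checked against expressed markers, and whether the host genes were transcribed was not analysed here. No library had a replicate, so no value below has a spread between samples and no test was made. Every 95% interval below covers counting error only.

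PAX7 is a transcription factor with a paired domain and a homeodomain, each of which can contact DNA, and it is the classical marker of satellite cells, the stem cells beneath the basal lamina of muscle fibres. Factors of this kind often bind enhancers, stretches of DNA that act on genes from a distance and many of which lie in introns. A site deep inside a long gene may act on its host, on another gene, or on none, and a peak position alone does not tell these apart.

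A few deep intragenic peaks lay at start sites. Of the 345 on the chromosomes that the promoter table covers, 13 had a summit within 1000 bp of a start listed for a gene in RefSeq (3.77%, Wilson interval 2.22 to 6.34%). Such a window takes up 0.578% of the deep sequence. Of these, 10 lay at starts of protein-coding genes, each an internal start of the host itself, where such windows take up 0.222% of the deep sequence. The other 3 lay at starts of noncoding genes inside the hosts Pitpnm2, Stard13 and Clasp1. The promoter table lists a start of the host for only 283 of the 345 peaks, so internal starts of other hosts could be missed. The sequences of 4 of the starts near a deep peak are shown because the summit lies within the printed window. Each is the 250 bases before the listed start, on the + strand of GRCm38.p6, from RefSeq. Capitals mark matches on either strand to CANNTG (the E-box bound by basic helix-loop-helix factors), TAATTA (a homeodomain core), GTCAC (letters of the paired domain motif) or TGANTCA (the AP-1 motif).
Jmjd1c: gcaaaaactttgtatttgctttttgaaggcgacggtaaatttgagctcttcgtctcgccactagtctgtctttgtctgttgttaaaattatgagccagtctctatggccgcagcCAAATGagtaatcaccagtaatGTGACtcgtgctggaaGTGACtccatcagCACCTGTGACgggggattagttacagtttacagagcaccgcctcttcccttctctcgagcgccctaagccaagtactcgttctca
Stard13, at the start of 1700028E10Rik: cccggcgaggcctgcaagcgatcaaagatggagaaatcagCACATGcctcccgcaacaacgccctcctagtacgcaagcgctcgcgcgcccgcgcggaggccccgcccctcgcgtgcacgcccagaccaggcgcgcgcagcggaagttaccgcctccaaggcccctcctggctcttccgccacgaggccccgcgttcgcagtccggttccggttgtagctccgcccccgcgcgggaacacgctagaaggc
Cald1: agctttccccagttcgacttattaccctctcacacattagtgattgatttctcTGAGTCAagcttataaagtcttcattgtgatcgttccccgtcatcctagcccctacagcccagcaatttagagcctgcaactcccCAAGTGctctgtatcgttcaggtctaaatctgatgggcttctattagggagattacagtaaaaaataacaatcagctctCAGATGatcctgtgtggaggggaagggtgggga
Rps6ka2: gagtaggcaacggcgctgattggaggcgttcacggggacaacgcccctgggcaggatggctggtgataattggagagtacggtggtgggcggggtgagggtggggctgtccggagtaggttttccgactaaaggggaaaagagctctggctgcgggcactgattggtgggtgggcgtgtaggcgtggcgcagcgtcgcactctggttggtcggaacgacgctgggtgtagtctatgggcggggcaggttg

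The Jmjd1c window is chr10:67185500-67185749 and held 2 matches to CANNTG and 3 to GTCAC, of which 1 of each overlapped. Jmjd1c encodes a protein of the JmjC demethylase family. Its peak had 21 ChIP fragments over the summit, which lay 113 bp before the start, and 230 of the printed bases were inside the peak. The Cald1 window is chr6:34709194-34709443 and held 2 matches to CANNTG and 1 to TGANTCA. Cald1 encodes caldesmon, an actin-binding protein, and its peak covered the whole window with 12 fragments at a summit 48 bp from the start.

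The Stard13 window is chr5:151368425-151368674 and held 1 match to CANNTG, with the summit 65 bp before the start. It was rich in CpG, with 34 CpG pairs and a GC content of 70.4%. The Rps6ka2 window is chr17:7169865-7170114, and it held 19 CpG pairs, a GC content of 63.2% and no match to any of the 4 motifs. The 32851 windows of the same length at all listed starts had a median of 6 CpG pairs and a median GC content of 52.4%. A match to CANNTG occurred in 66.2% of those windows, to GTCAC in 39.8%, to TGANTCA in 6.75% and to TAATTA in 4.84%. The letters CANNTG and GTCAC are therefore common in any such window, and the matches are descriptions of the sequence, not sites.

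The strongest deep intragenic peak, and the strongest of all 2958 autosomal peaks, lay in Aopep, which encodes an aminopeptidase. At chr13:63113116-63113599 there were 53 ChIP fragments over the summit against a local background of 0.98. The pileup is the authors' count of ChIP fragments over the summit, and the local background is the expected coverage from the input, scaled to the ChIP depth. The authors' fold enrichment, which is (pileup + 1) over (background + 1), was 27.3 (20.6 to 35.6). The interval beside a fold treats the pileup as a Poisson count (exact interval) and takes the background as known. The summit lay 148 kb from the nearest gene end in a gene of 361 kb.

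Etl4, a gene known from an enhancer trap line and needed for normal intervertebral discs, held the next strongest peak. It had 49 fragments against 0.98 at chr2:20642690-20643194, a fold of 25.3 (18.8 to 33.3), and lay 168 kb from the nearest gene end in a gene of 900 kb. Ksr2, a scaffold of the Raf, MEK and ERK kinase cascade, had 45 fragments against 0.98 at chr5:117493565-117493903, a fold of 23.3 (17.1 to 31.0). The intervals of these 3 peaks overlap, so their order is not resolved at this depth. They were 3 of the 6 autosomal peaks at 20-fold or more.

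Below them, Adamts2, the protease that trims the amino end of procollagens, had 38 fragments at chr11:50678790-50679136 and a fold of 19.7 (14.1 to 26.9). Fry, a large microtubule-associated protein, had 42 fragments against a background of 1.25 and a fold of 19.1 (13.9 to 25.7). Rfx3, a transcription factor of cilium formation, reached 17.7-fold (12.4 to 24.5), and Deptor, an inhibitor of the kinase mTOR, 17.4-fold (12.2 to 24.0). The backgrounds of these peaks were low, between 0.98 and 1.25.

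The next of the 15 strongest peaks lay in genes of varied function. Auts2, a nuclear regulator associated with Polycomb complexes, and Mad1l1, of the spindle checkpoint, each had a peak of 16.2-fold. Ank3 (ankyrin-G, which ties membrane proteins to spectrin) and Atxn7l1 each had one of 15.2-fold. Arid1b, a subunit of BAF chromatin remodelling complexes, and Map3k5, a stress-activated kinase, each had one of 14.7-fold. Adcy2, an adenylyl cyclase, had one of 14.2-fold and Ldlrad3, a membrane protein of the LDL receptor type, one of 13.7-fold. From Mad1l1 downward the intervals all overlap with one another.

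**Figure D1:**
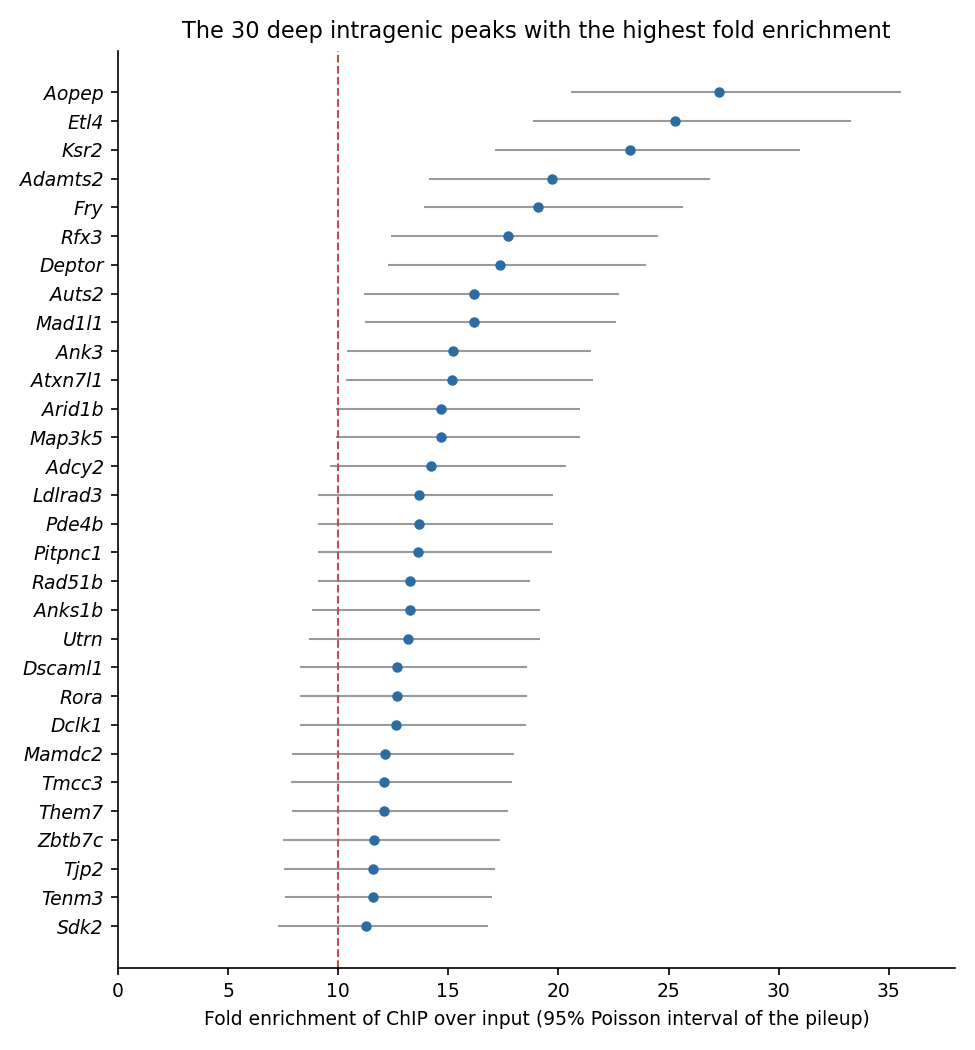
Fold enrichment of ChIP over input (x axis, linear) of the 30 deep intragenic peaks with the highest fold, labelled by host gene. Points are the authors' fold, lines the 95% Poisson interval of the pileup, and the dashed line marks 10-fold. Aopep, Etl4 and Ksr2 stand at 27.3, 25.3 and 23.3, and the intervals of neighbouring peaks overlap throughout.

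The median fold of deep intragenic peaks was 7.24 (order-statistic interval 7.08 to 7.56), with quartiles of 6.37 and 8.99 and a range of 3.66 to 27.3, against 7.35 (7.14 to 7.42) and a range of 1.42 to 24.0 for the other 2600 autosomal peaks. A fold of 10 or more was reached by 52 of 358 (14.5%, Wilson interval 11.3 to 18.6%), where the background over all autosomal peaks was 14.5%. The share was 17.4% (14.1 to 21.4%) for peaks inside genes at 10 to 50 kb from an end and 16.5% (13.4 to 20.2%) for intergenic peaks beyond 50 kb, and these intervals overlap with that of the deep peaks.

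At higher limits, which were chosen after the values were seen, the shares differed. A fold of 15 or more was reached by 11 of the 358 deep peaks (3.07%, 1.72 to 5.42%) and by 33 of the 2600 others (1.27%, 0.905 to 1.78%). The 2 intervals overlap slightly. The 11 made up 25% of the 44 autosomal peaks at that level, while deep peaks were 12.1% of the list. Far intergenic peaks also reached such values. At 15.7-fold or more, the top 1% of autosomal peaks, there were 9 of 358 deep and 8 of 454 far intergenic peaks. There were also 10 of 862 peaks within 1 kb of a gene end and 5 of 516 at 1 to 10 kb. At 10 to 50 kb there were 2 of 407 inside genes and 1 of 361 between genes.

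**Figure D2:**
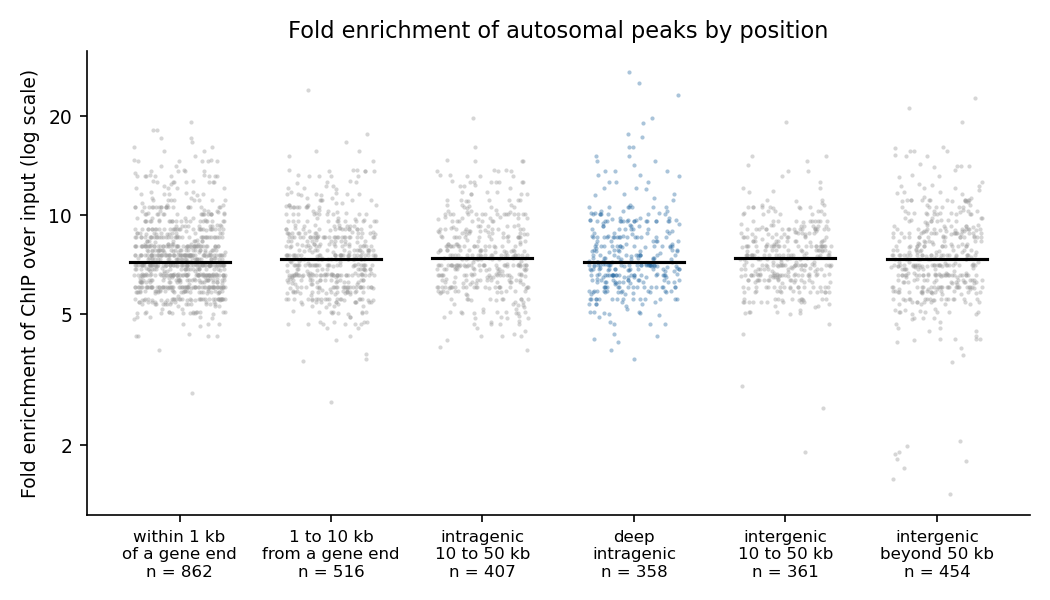
Fold enrichment of each autosomal peak (y axis, log scale) by the position of its summit, with the median of each class as a bar and its number of peaks below. The medians lie close together, at 7.24 for the 358 deep intragenic peaks and 7.35 for the 454 intergenic peaks beyond 50 kb, while the 3 highest points of the deep class lie at 23.3 to 27.3.

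The peaks were narrow and rested on few fragments. The median pileup was 15 fragments (range 9 to 54) and the median width 236 bp, against 229 bp for other peaks. The background was at its floor of 0.977, the genome-wide mean, in 143 of 358 (39.9%, 35.0 to 45.1%), against 44.6% (42.7 to 46.5%) of all others. By class the share was 36.6% in far intergenic peaks, 40.7% to 42.9% in the classes from 1 to 50 kb and 53.7% within 1 kb of a gene end. Camk1d, a calcium-dependent kinase, stood apart. Its peak had the highest pileup of the deep class, 54 fragments, but a background of 14.0, the highest in the class, and so the lowest fold, 3.66 (2.76 to 4.75). The next highest background was 3.12, and 12 deep peaks in all were below 5-fold.

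Deep intragenic sequence, more than 50 kb inside genes, made up 343.0 Mb or 14.3% of the 2.402 Gb covered, and held 12.1% of the autosomal peaks (Wilson interval 11.0 to 13.3%). That is 1.04 peaks per Mb (exact Poisson interval 0.938 to 1.16). The density was 1.14 per Mb (1.03 to 1.25) inside genes at 10 to 50 kb from an end and 1.05 (0.942 to 1.16) between genes at the same distances, so these neighbours were not separable. Beyond 50 kb the inside of genes and the space between them differed, since far intergenic sequence held 0.541 peaks per Mb (0.492 to 0.593). Within 1 kb of a gene end the density was 11.6 per Mb (10.8 to 12.4). The sequence that tags can be placed on was not measured here, so its part in these densities was not tested.

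The median distance from a deep peak to the nearest gene end was 94.7 kb (quartiles 66.4 and 144.7 kb). There were 162 peaks beyond 100 kb and 46 beyond 200 kb. The farthest lay 618.4 kb inside Tenm3, which encodes a teneurin, a transmembrane adhesion protein of developing neurons and other tissues. It had 11 fragments and a fold of 6.07 (3.28 to 10.5). A peak of Pde4d lay 606.1 kb from the nearest end at 6.37-fold. The limit of 50000 bp cut through a continuum. The closest peaks inside it were in Galnt17 (50012 bp, 6.86-fold), Mbnl2 (50025 bp, 7.59-fold) and Shb (50126 bp, 6.37-fold). The closest outside it were in Slit1 (49988 bp, 6.07-fold), St7 (49659 bp, 5.08-fold) and Igf2bp2 (49311 bp, 8.33-fold).

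Only genes longer than about 100 kb can hold such a peak, and 2195 protein-coding genes held any deep sequence. Of these, 241 carried 1 or more deep peaks, a background of 11.0% (9.74 to 12.4%) for the gene groups below. Longer genes were hosts more often. The share was 3.48% (2.45 to 4.93%) of genes with up to 50 kb of deep sequence, 17.5% (14.1 to 21.6%) at 100 to 200 kb and 26.5% (19.7 to 34.6%) at 400 to 800 kb. Per Mb the longest genes had the lowest density. It was 1.87 peaks per Mb (1.29 to 2.62) in genes with up to 50 kb of deep sequence, 1.32 (0.942 to 1.80) at 50 to 100 kb, 1.65 (1.33 to 2.02) at 100 to 200 kb, 1.03 (0.828 to 1.26) at 200 to 400 kb, 0.940 (0.730 to 1.19) at 400 to 800 kb, and 0.424 (0.292 to 0.596) in the 69 genes with over 800 kb.

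**Figure D3:**
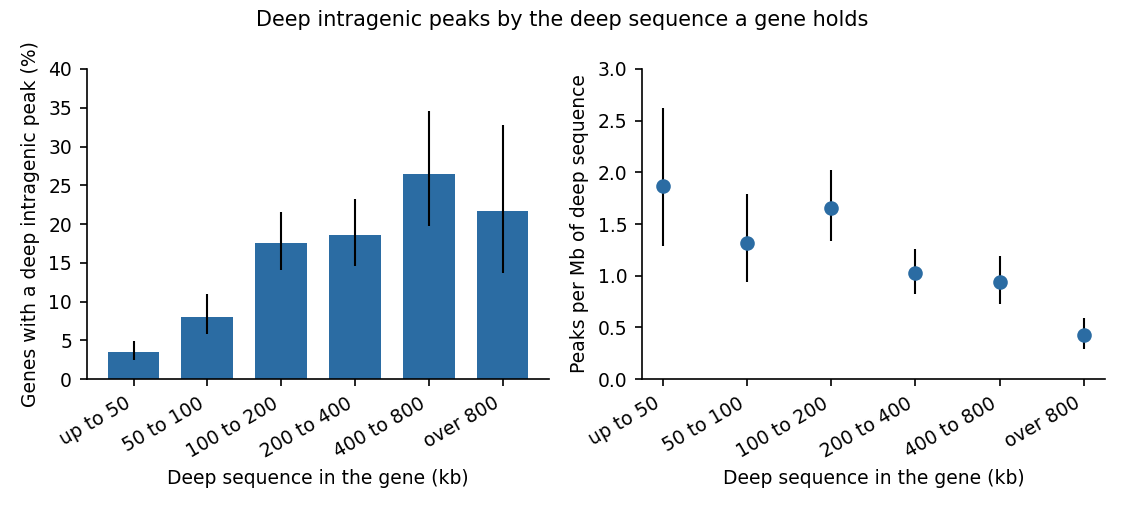
Genes grouped by the length of deep sequence they hold (x axis, kb). The left panel gives the percentage of genes with a deep intragenic peak (bars from 0, with 95% Wilson intervals) and the right panel the number of peaks per Mb of deep sequence (points, with 95% Poisson intervals). The percentage goes from 3.48% to 26.5% at 400 to 800 kb and is 21.7% over 800 kb, while the density is 1.87 in the shortest group and 0.424 in the longest.

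Among the longest hosts the number of peaks varied. Dlg2, a postsynaptic scaffold and at 1973.1 kb the longest host, had 1 deep peak, at 7.56-fold (4.36 to 12.3). Tenm3 had 3, at 6.07, 8.82 and 11.6-fold. Pde4d, at 1301.8 kb, held 6.

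A single deep peak was found in 170 hosts, and 71 hosts had 2 or more, which together held 188 of the 358 peaks. There were 25 hosts with 3 or more. Rad51b, a gene of homologous recombination, had 6 deep peaks. Their pileups in the order of the gene were 13, 14, 30, 13, 13 and 11 fragments, with folds of 6.47, 5.75, 13.2, 6.47, 7.08 and 6.07. The first 2 summits were 579 bp apart, and the 6 spread over 346 kb. One peak of this gene was higher than the rest, though its interval (9.07 to 18.7) overlaps with theirs.

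Pde4d, a cAMP phosphodiesterase, also had 6, with pileups of 12, 22, 20, 16, 15 and 19 fragments and folds of 6.37 to 8.64. All their intervals overlap. One lay 606 kb from the 5′ end and the other 5 between 979 and 1135 kb. In Aopep the 5 deep peaks had pileups of 10, 18, 53, 20 and 15 fragments and folds of 5.56, 9.61, 27.3, 10.6 and 6.25. The summits of the strongest peak and of the peak at 10.6-fold were 636 bp apart. The interval of the strongest (20.6 to 35.6) did not overlap with that of any other peak of the gene.

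Dlgap1, a scaffold of the postsynaptic density, had 5 deep peaks within 124 kb, all in the 3′ part of the gene, at 661 to 785 kb of 852 kb. Their pileups were 19, 20, 18, 11 and 15 fragments and their folds 4.69 to 10.6. Pakap, whose product anchors protein kinase A, had 5 spread over 265 kb with pileups of 16, 12, 15, 11 and 21 fragments and folds of 6.07 to 10.2. In both genes the intervals of all 5 folds overlap.

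The 9 hosts with 4 deep peaks included 2 paralogs that encode single-stranded nucleic acid-binding proteins, Rbms1 (5.55 to 6.64-fold) and Rbms3 (5.06 to 9.09-fold). Arhgap24 and Stard13, both GTPase-activating proteins, had peaks of 5.86 to 7.99-fold and 5.55 to 6.99-fold. Thsd4, of the extracellular microfibrils, had peaks of 5.08 to 9.61-fold, Kcnma1, a large-conductance potassium channel, of 5.88 to 7.59-fold, and Nsmce2, a SUMO ligase of the SMC5/6 complex, of 5.39 to 7.40-fold. In these genes no peak stood above the others beyond its counting interval. In Auts2 and Anks1b 1 peak was higher, at 16.2-fold (11.2 to 22.8) and 13.2-fold (8.82 to 19.2). The other 3 of each gene were at 5.88 to 7.99-fold and 6.83 to 7.94-fold. In Anks1b the intervals of all 3 overlapped with that of the highest. In Auts2 the interval of the peak at 5.88-fold lay below that of the highest.

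Hosts with 3 deep peaks were Tenm3, Cdh13 (T-cadherin), Hivep3 (a zinc finger factor), Apbb2, Msi2 (the RNA-binding protein Musashi), Cubn (the endocytic receptor cubilin), Upp2, Rbm20 (a splicing factor of titin transcripts), Lpp, Cdk14 and Pde7b (a cAMP phosphodiesterase). Their highest peak was Tenm3 at 11.6-fold (7.57 to 17.0), followed by Cdh13 and Hivep3 at 10.6-fold. The 3 peaks of Pde7b were among the weaker ones of the class, at 5.47, 4.72 and 5.08-fold, with backgrounds of 1.56, 2.60 and 1.56.

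**Figure D4:**
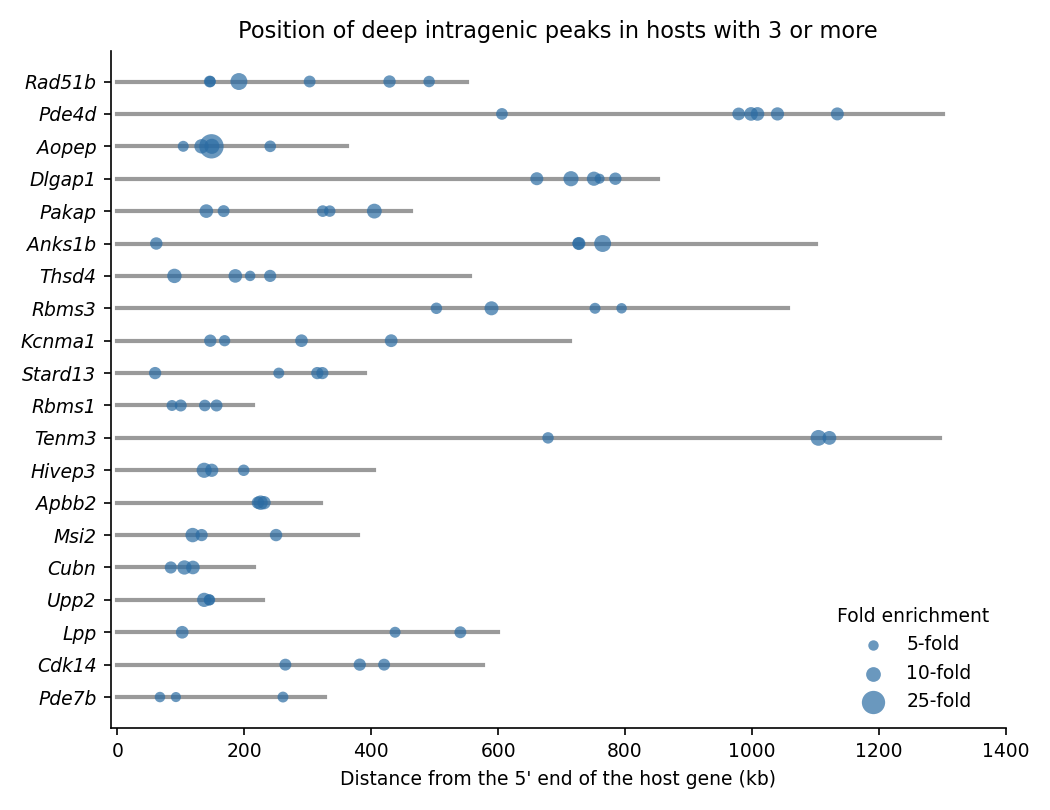
Position of each deep intragenic peak along the 20 hosts with 3 or more and a listed strand (x axis, kb from the 5′ end of the gene). Grey lines are the genes to scale and the area of a circle is proportional to the fold. Peaks of Dlgap1 lie at 661 to 785 kb, those of Pde4d mostly at 979 to 1135 kb, and Aopep has the largest circle.

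Peaks close to one another share chromatin and part of their fragments' region, and are not independent. Merging summits within 10 kb left 333 groups of the 358 peaks. There were 23 groups of more than 1 peak, which held 48 peaks, and a neighbour within 10 kb in the whole list was found for 13.4% of deep peaks (10.3 to 17.3%) and 14.8% of others (13.5 to 16.2%). Very close pairs included Jmjd1c (287 bp, 10.2 and 6.37-fold, one on each side of the internal start shown above), Anks1b (291 bp) and Atrnl1 (143 bp, 6.86 and 5.08-fold).

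Along the host, deep peaks were spread about evenly between both ends. Strand was listed for 184 hosts with 283 peaks, of which 137 lay nearer to the 5′ than the 3′ end of the gene (48.4%, 42.6 to 54.2%), where 50.2% of the deep sequence lies. The median position was 50.7% of the way from the 5′ end. A long noncoding RNA gene overlapped 27 of the 358 summits (7.54%, 5.23 to 10.8%), where such genes cover 4.71% of deep sequence. The highest of these were in Pitpnc1 (13.6-fold, under Gm11716), Sorbs2 (10.8-fold, under Gm16351) and Dlgap1 (10.6-fold, under Gm36746).

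Density also varied by chromosome. Of the 19 chromosomes it was highest on chromosome 19, with 21 peaks in 7.92 Mb of deep sequence (2.65 per Mb, 1.64 to 4.05), and lowest on chromosome 6, with 10 peaks in 25.5 Mb (0.393 per Mb, 0.188 to 0.722). These 2 intervals do not overlap with each other, and that of each leaves out the 1.04 of all autosomes.

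Hosts were then grouped by function, and 11 lists are given here. The lists were chosen with earlier results of these data known, and the part of that choice in the counts below was not tested. For each list the number of hosts is given with the number of its genes that hold deep sequence, beside the background of 11.0%. Because long genes are hosts more often, the count that the list would have at the shares or densities of all genes in its length groups is also given.

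The list of transcription factors and their cofactors was drawn up for long genes. Its genes were hosts in 28 of 91 cases (30.8%, 22.2 to 40.9%), where their lengths gave 12.9. They held 45 deep peaks at 2.39 per Mb (1.74 to 3.20), where their lengths gave 19.8 peaks. Hosts in this list included Rora, a nuclear receptor of the circadian clock (12.6 and 6.58-fold), Hivep3 (10.6, 8.09 and 6.07-fold) and Runx2, the master factor of bone formation (10.6 and 5.47-fold). The list also counts Auts2 and Lpp, which are not DNA-binding factors and held 4 and 3 of the 45 peaks. The median fold of the 45 peaks was 7.08, near that of the class. Others were Tead1, a partner of YAP (8.09-fold), Zeb1 (8.80-fold), Nfia (6.86 and 6.58-fold), Foxp1 (8.07 and 6.83-fold) and the E protein Tcf12 (7.27-fold), named after their values were seen. The 63 genes of this list without a deep peak included Zeb2, Nfib, Foxp2, Tcf4, Sox5, Sox6 and Rarb.

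Of 39 genes known from muscle stem cells, 7 held deep sequence, and 3 of them were hosts, with 1 deep peak each. Tenm4, a teneurin, had 13 fragments at 7.06-fold (3.99 to 11.7), Cdh2, the N-cadherin that holds stem cells to the fibre, 13 at 6.86-fold (3.88 to 11.4), and Megf10, a receptor of satellite cell proliferation, 13 at 6.47-fold (3.66 to 10.7). Col5a1, Met, Ncam1 and Notch2 had none. The share of 42.9% has an interval of 15.8 to 74.95%, and the lengths of these genes gave 0.845 hosts and 1.37 peaks. Pax7 spans 96.5 kb and so cannot hold a deep peak, and of the 2 peaks within it the farther from a gene end lay 35696 bp away.

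Of genes of the sarcomere, dystrophin complex and nuclear envelope, 3 of 21 were hosts (14.3%, 4.98 to 34.6%), with 5 peaks, where their lengths gave 3.52 hosts and 5.57 peaks. Utrn, which encodes utrophin, the relative of dystrophin, had 2 deep peaks 8582 bp apart, with 25 and 13 fragments at 13.2-fold (8.69 to 19.2) and 7.08-fold (4.01 to 11.8). Syne1, the nesprin that links nuclei to the cytoskeleton, had a peak of 10.6-fold (6.72 to 15.9). Lama2, the laminin chain of muscle basement membrane, had 2, of 7.24 and 7.10-fold.

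Each of 3 signalling lists had a share of hosts near 20%. Genes of cAMP, calcium and G protein signalling were hosts in 12 of 64 cases (18.8%, 11.1 to 29.97%) with 21 peaks, where their lengths gave 9.43 hosts and 15.3 peaks. These included the phosphodiesterases Pde4b (13.7 and 6.37-fold), Pde4d and Pde7b, the cyclase Adcy2 and the calcium channel gene Cacna1d (10.2 and 5.86-fold). The phosphodiesterases Pde1a, Pde1c, Pde3a, Pde3b, Pde8a, Pde8b, Pde10a and Pde11a of this list had no deep peak. Nor had the cyclases Adcy5, Adcy8 and Adcy9 or the channel genes Cacna1c, Cacna2d1, Cacnb2 and Cacnb4. Receptor tyrosine kinases, phosphatases and adaptors had 13 hosts of 64 (20.3%, 12.3 to 31.7%) with 14 peaks, where their lengths gave 8.66 hosts and 14.0 peaks. The highest folds were in Ksr2, Deptor and Map3k5, which are not receptor kinases, and then in the ephrin receptor Epha5 (10.1-fold). TGF-beta, BMP, Wnt, Hedgehog and Notch genes had 6 hosts of 32 (18.8%, 8.89 to 35.3%), with 8 peaks, where their lengths gave 3.20 hosts and 5.09 peaks. The teneurins Tenm3 and Tenm4, which are adhesion proteins and not core members of these pathways, held 4 of the 8. The others included the Hedgehog effector Gli2 at 8.60-fold, Adam12 at 7.59-fold and Bmp6 at 7.35-fold.

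Extracellular matrix genes and matrix proteases had 11 hosts of 69 (15.9%, 9.14 to 26.3%), with 18 peaks, where their lengths gave 9.04 hosts and 13.8 peaks. Beside Adamts2 these held both genes of the chief basement membrane collagen. Col4a2 had 2 deep peaks 2540 bp apart (9.71 and 8.60-fold) and Col4a1, its neighbour on the opposite strand, had 1 (8.33-fold). Col4a3 and Col4a4 had none. Of the laminin genes of this list Lama2 was a host, while Lama1, Lama3, Lama4 and Lamc1 were not. Chromatin regulators had 4 hosts of 31 (12.9%, 5.13 to 28.9%). These were Arid1b (14.7 and 5.56-fold), Jmjd1c, the remodeller Chd9 (10.1-fold) and the deacetylase Hdac4 (6.58-fold). The length groups gave 3.01 hosts and 4.09 peaks for this list, which held 6. The intervals of these shares are wide. Those of the chromatin, matrix, sarcomere, TGF-beta, adhesion and neuronal lists include 11.0%. The 11.0% takes no account of gene length. By length the cAMP list gave 9.43 hosts against 12 found, and the receptor tyrosine kinase list 8.66 against 13.

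The lists of the longest genes held few peaks for their size. Neuronal synapse and ion channel genes were hosts in 8 of 92 cases (8.70%, 4.47 to 16.2%), where their lengths gave 16.4. They held 16 peaks in 41.3 Mb, 0.387 per Mb (0.221 to 0.629), where their lengths gave 30.9 peaks. The hosts with the highest folds were Dlgap2 (11.1-fold), Dlgap1, Trpm3 (10.1 and 5.88-fold) and Celf4 (8.60-fold), and Dlgap1 and Kcnma1 together held 9 of the 16. Cell adhesion and axon guidance genes were hosts in 13 of 85 cases (15.3%, 9.16 to 24.4%), near the 14.99 their lengths gave, but with 15 peaks, 0.363 per Mb (0.203 to 0.598), where their lengths gave 27.7. Their strongest were the immunoglobulin family genes Dscaml1 (12.6-fold) and Sdk2 (11.3-fold), then Cdh13 and the protocadherin Pcdh7 (10.1-fold).

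A list of markers of other cell types that can be found in muscle (endothelial cells, pericytes, adipogenic cells and leukocytes) had 5 hosts of 16 (31.3%, 14.2 to 55.6%), with 6 peaks, where their lengths gave 1.84 hosts and 2.68 peaks. They were Ebf2, a factor of adipogenic cells (10.1-fold), Mecom (9.80-fold) and Runx1 (9.31 and 7.08-fold), both factors of blood stem cells, the endothelial receptor Tek (6.22-fold) and Plxdc2 (5.88-fold). The other 11 had none: Abcc9, Dock2, Ebf1, Erg, F13a1, Flt1, Mrc1, Pparg, Prkg1, Ptprb and Ptprc. Ebf2, Mecom and Runx1 are also counted among the transcription factors. A binding site does not show that the gene is expressed, and the part of other cells in these peaks was not tested. The remaining 1552 genes with deep sequence are in no list, and 128 of them were hosts (8.25%, 6.98 to 9.72%), where their lengths gave 147.8.

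**Figure D5:**
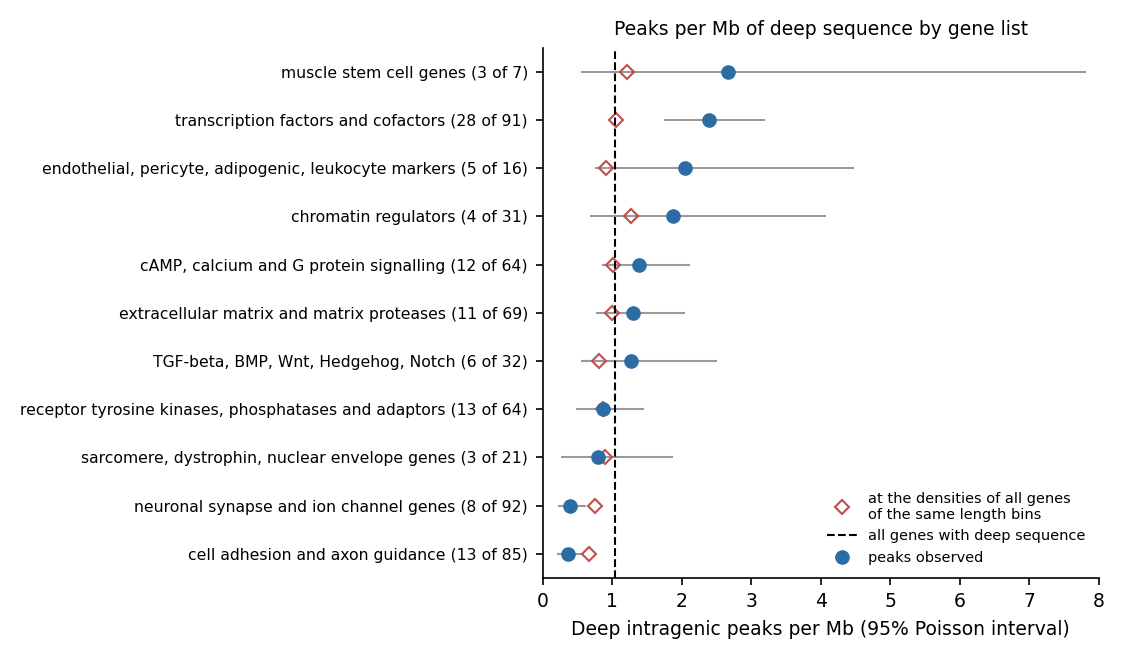
Deep intragenic peaks per Mb of deep sequence (x axis) for 11 gene lists, with the number of hosts of the genes that hold deep sequence. Filled points are the observed density with its 95% Poisson interval, open diamonds the density of all genes of the same length groups, and the dashed line all genes with deep sequence (1.04). Transcription factors and cofactors lie at 2.39, and the neuronal and adhesion lists at 0.387 and 0.363.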

How the data were processed

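Libraries were single-end 50 bp, per the labels' protocols. The submitters' processing notes name GRCm38, bcl2fastq 2.16, HISAT2 and MACS2 2.1.1. Peaks were called on 1 ChIP library against 1 input library by MACS (version 2.1.1.20160309), with 0.01 as the highest q-value, a fragment length of 172 bp and background windows of 1000 and 10000 bp, per the file headers. Among the deposited values, pileup is a signal of coverage and fold enrichment a ratio with 1 added to both terms. Each peak's significance was deposited as −log10 of the p-value and of the q-value. The input was scaled to the ChIP depth, per the file headers, a factor of 0.5199 from the tag counts. Depth was 10622111 and 20429667 tags, so a median pileup of 15 sets the precision.

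The background was computed from fold and pileup (pandas 2.3.3, scipy 1.17.1). Genes were the 21770 protein-coding genes of the GRCm38.p6 RefSeq table, with 365 entries on scaffolds, patches or unplaced left out. The table gives no exons, so exon or intron was not analysed here. Strand and starts came from the RefSeq promoter table, which covers 18 of the 19 chromosomes and does not list every gene on them. All gene list symbols but 1 of 903 were matched. Intervals are Wilson for shares, exact Poisson for pileups and densities, and order-statistic for medians. Peaks are not replicates, so no test was made. Counts by gene length used 6 groups of deep sequence.

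The peaks and lists were chosen with earlier results of these data known. The text names the hosts of the 15 highest folds, hosts with 3 or more deep peaks, Pax7, up to 4 hosts per list, the 3 hosts on each side of the distance limit and the 5 longest hosts. Results for some of these genes and for 1 list are not reported here. Genes at listed starts, Camk1d, Atrnl1, Pitpnc1, Col4a1 and further list members were named after their values were seen. Alternatives changed the distance limit, the peak set, the chromosomes and the gene ends used, and 1 more, leaving out peaks at listed starts, was chosen after seeing the data.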

Additional observations from a re-analysis of the deposited data

How the results depend on the processing

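Of 70 values, 55 kept within their limits and 15 moved. With a distance limit of 25 kb there were 561 peaks in 390 hosts, 8.55% of genes that could host. With 100 kb there were 162 peaks in 105 hosts, and the density over that of the other autosomes was 0.632, against 0.826. Keeping only peaks whose −log10 q reached the median of the list left 179 in 146 hosts, 6.65% of genes, with a median fold of 8.99 and 29.1% at 10-fold or more; this filter keeps strong peaks by construction. Counting the ends of noncoding genes left 172 peaks in 133 hosts, 8.23% of genes, at a density ratio of 0.650; the rule then covers less sequence. Over all alternatives the difference of median folds, deep minus other, ranged from -0.272 to 0.199, so its sign is not settled. No other alternative moved a value, including the one added after seeing the data, without the peaks at listed starts (345 peaks in 231 hosts).

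No paired analysis was possible because each group had 1 library and the labels carry no replicate numbers, and no replicate could be left out. A median pileup of 15 fragments limits single folds to intervals of about 4.75 to 13.02 (as for Pde4d at 8.09-fold), so the order of most peaks is not resolved.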

Other observations

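Of the 241 hosts, 58 also held at least 1 autosomal peak nearer to a gene end, within their own span. Schip1, which encodes a schwannomin-interacting protein, was the one host whose 2 deep peaks lay under more than 1 protein-coding gene, with folds of 9.80 and 4.98. The weakest deep peaks after Camk1d were in Pip5k1b, a phosphoinositide kinase (3.89-fold, background 2.60), and Pcsk5, a proprotein convertase (4.13-fold, background 3.12). No deep peak lay on a listed microRNA gene, and none of the 17 peaks on the X chromosome met the rule for deep peaks.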
